A study of Mus musculus with 18 samples.

Results

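The core spliceosome proteins described here were the genes whose symbol starts with Snrp, Sf3a, Sf3b or Prpf, or with Lsm followed by a digit, and that had reads in every library. This rule gave 45 of the 10181 genes listed in all 18 libraries. They were divided by symbol into 23 genes called Sm and Lsm proteins here (Snrp and Lsm symbols) and 22 Prpf and Sf3 proteins. The first class also holds Snrpa, Snrpa1, Snrpb2 and Snrpc, proteins of the U1 or U2 snRNP that are not Sm proteins. Snrpn fit the symbols but was listed in only 3 libraries, with at most 1 read, and Snrpg was not analysed here. Reads per gene came from RAW264.7, a mouse macrophage-like cell line, grown for a set time with 4-thiouridine (4sU), a form of uridine that cells build into new RNA and that is later read as C. Each of 9 lysates gave a library of ribosome footprints (RNase I digestion, monosome fraction) and a library of cytoplasmic input RNA (alkaline fragmentation). Experiment 2 covered 20, 30 and 40 min of labelling. Experiment 1 covered 20, 40, 60, 90 and 120 min and held the 1 unlabelled lysate. All lysates were of this cell line with no other treatment named, and cycloheximide was in the wash and lysis buffers of every lysate. The stated aim of the study was ribosome density on nascent mRNA. The labels do not say whether lysates were separate cultures, so p-values speak of the spread among these lysates, which may be technical.

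The spliceosome removes introns from pre-mRNA and is built from small nuclear ribonucleoproteins (snRNPs), each a small nuclear RNA with its proteins. Sm proteins form a ring around the U1, U2, U4 and U5 RNAs, assembled in the cytoplasm by the SMN complex, while a ring of Lsm proteins holds U6 RNA and a related cytoplasmic Lsm ring takes part in mRNA decay. The SF3A and SF3B complexes belong to the U2 snRNP and hold the branch point of the intron, and the Prpf proteins, named after yeast pre-mRNA processing mutants, include the scaffold and assembly factors of the U4/U6.U5 tri-snRNP. These are housekeeping genes of proliferating cells, and their proteins range from short ring subunits to the very large Prpf8.

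Footprint libraries held 11771175 to 87536081 reads and input libraries 6230562 to 48139330, experiment 2 being the deeper in both materials. The 45 genes took 0.833% to 0.922% of footprint reads and 0.654% to 0.737% of input reads. All 10 macrophage marker genes looked for were listed, with 6194 to 7854 CPM of input in sum (CPM being reads scaled to the library total), and of 5 markers of other cell types 0 had reads. Levels are shares of a library, so fewer RNA molecules per cell and fewer cells with the RNA cannot be told apart.

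Of 5 short members shown here, 4 come from the high and low ends of the footprint comparison, and the other has few T positions, which matters since a conversion can be read only where the RNA has a T. The start of each coding sequence, taken from GENCODE M21 transcripts on build GRCm38, is printed 5′ to 3′ with every T in capitals, and the coordinates are those of the gene. Snrpd3 (chr10:75517551-75537381, plus strand) and Lsm2 (chr17:34981862-34985891, plus strand) stood highest in footprints among the Sm and Lsm proteins. Lsm1 (chr8:25785288-25803975, plus strand) stood lowest, and Lsm5 (chr6:56701063-56704710, minus strand) was the ring subunit that did not pass the test. Lsm7 (chr10:80852821-80855209, minus strand) was among the lowest in T positions per input read, at 4.73, where the highest of the 45 genes, Snrpe, had 8.32.
Snrpd3: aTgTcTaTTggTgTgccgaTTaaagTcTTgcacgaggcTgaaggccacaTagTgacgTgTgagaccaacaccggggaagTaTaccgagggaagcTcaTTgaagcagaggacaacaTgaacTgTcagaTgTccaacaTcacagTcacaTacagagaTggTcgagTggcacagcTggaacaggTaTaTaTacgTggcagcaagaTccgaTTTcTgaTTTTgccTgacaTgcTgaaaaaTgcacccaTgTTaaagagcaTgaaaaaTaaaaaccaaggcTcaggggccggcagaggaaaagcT
Lsm2: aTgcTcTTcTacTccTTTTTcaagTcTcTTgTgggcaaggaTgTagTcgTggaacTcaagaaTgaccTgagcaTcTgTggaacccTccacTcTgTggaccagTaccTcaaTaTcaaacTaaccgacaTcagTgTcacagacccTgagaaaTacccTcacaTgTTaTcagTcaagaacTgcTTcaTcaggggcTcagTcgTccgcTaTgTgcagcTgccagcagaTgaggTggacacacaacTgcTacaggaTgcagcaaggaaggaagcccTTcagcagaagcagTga
Lsm1: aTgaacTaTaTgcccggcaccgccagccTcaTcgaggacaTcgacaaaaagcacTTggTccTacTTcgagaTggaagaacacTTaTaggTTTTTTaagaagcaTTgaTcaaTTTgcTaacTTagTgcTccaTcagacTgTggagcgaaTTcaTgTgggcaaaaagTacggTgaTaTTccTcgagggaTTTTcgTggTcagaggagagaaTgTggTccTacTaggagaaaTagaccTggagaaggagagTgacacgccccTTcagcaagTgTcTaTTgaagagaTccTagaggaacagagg
Lsm5: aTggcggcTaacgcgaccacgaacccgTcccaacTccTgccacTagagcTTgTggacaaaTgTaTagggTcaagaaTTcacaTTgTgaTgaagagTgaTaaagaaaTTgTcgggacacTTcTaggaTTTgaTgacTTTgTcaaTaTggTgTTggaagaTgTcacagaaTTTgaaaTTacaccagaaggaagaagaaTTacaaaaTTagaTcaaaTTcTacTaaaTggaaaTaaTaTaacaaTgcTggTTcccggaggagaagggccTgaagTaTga
Lsm7: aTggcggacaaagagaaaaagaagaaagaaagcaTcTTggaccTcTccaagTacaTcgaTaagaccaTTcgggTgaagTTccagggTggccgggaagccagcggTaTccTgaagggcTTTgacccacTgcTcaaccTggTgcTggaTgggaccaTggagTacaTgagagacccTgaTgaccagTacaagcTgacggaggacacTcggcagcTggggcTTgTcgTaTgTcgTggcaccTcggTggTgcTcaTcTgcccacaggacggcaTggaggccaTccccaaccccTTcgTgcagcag
The Snrpd3 stretch held 59 T in its first 300 coding bases, that of Lsm1 held 70 and that of Lsm7 held 54. The whole coding sequences of Lsm2 and Lsm5 held 65 T in 288 bases and 67 in 276.

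Most core spliceosome mRNAs carried more footprints per input read than the typical gene. By edgeR's quasi-likelihood test with Benjamini-Hochberg adjustment at 0.05, 33 of the 45 were higher and 4 lower in footprints than in input, where 35.8% of all 10110 genes tested were higher and 40.4% lower. The median log2 change was 0.52 over the 45 genes and -0.04 over all genes. Of the Sm and Lsm proteins 19 of 23 were higher and 2 lower (median 0.66), and of the Prpf and Sf3 proteins 14 of 22 were higher and 2 lower (median 0.34). In 16 of the 45 genes all 9 footprint values lay above all 9 input values, and in 0 they lay below. The log2 ratio was positive in 9 of 9 lysates for 26 genes and negative in 9 of 9 for 2. These counts by lysate were made for the members only, so no share over all genes stands beside them.

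**Figure D1:**
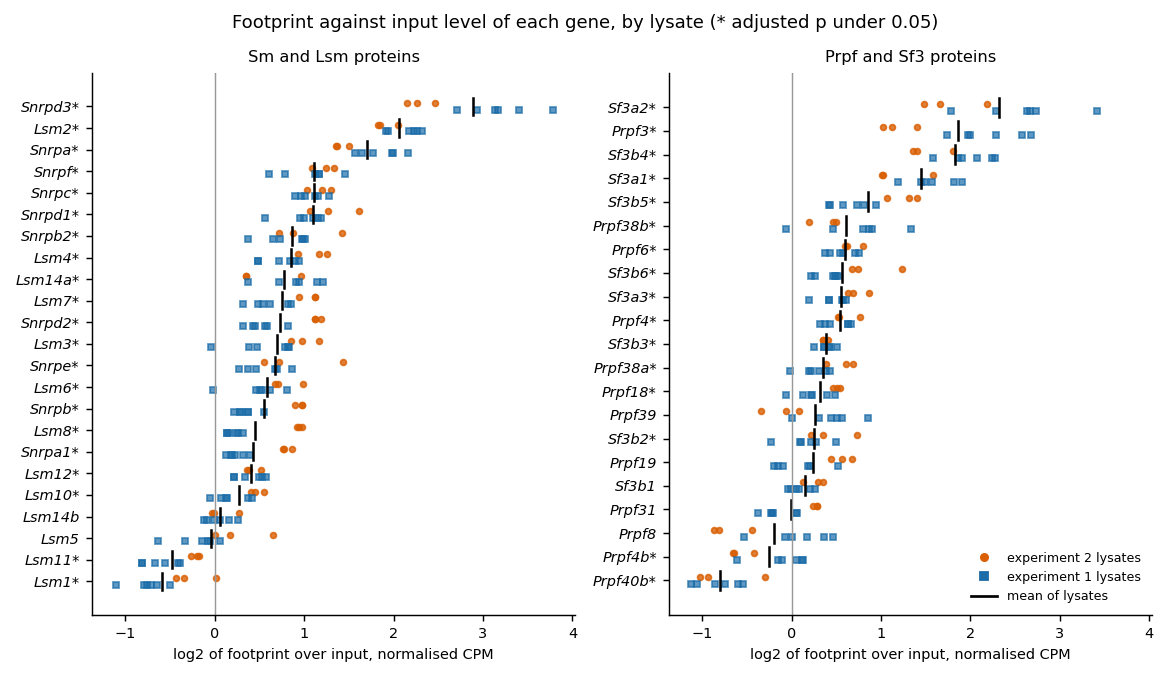
Log2 of footprint over input level (x axis, from normalised CPM plus 0.5) for 23 Sm and Lsm genes (left) and 21 Prpf and Sf3 genes (right), with 1 point per lysate, experiments in different colours and the mean of 9 lysates as a bar. Snrpd3, Lsm2, Sf3a2 and Prpf3 lie above 1 in every lysate, while Lsm11 and Prpf40b lie below 0 in every lysate.

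All 6 Sm ring genes were higher in footprints, with a median of 0.88. Snrpd3, a core Sm ring subunit, had a lowest, median and highest level of 289, 326 and 449 normalised CPM in footprints, against 25.5, 49.6 and 68.3 in input. Its log2 change was 2.81 (SE 0.171, adjusted p = 9.07e-10), and the materials did not overlap. The other ring genes ranged lower, with Snrpf at 1.08, Snrpd1 at 1.07, Snrpd2 at 0.68, Snrpe at 0.64 and Snrpb, which encodes the SmB proteins, at 0.51. The 4 proteins specific to the U1 or U2 snRNP were also all higher, with a median of 0.96. Snrpa, a U1 snRNP protein that binds a stem loop of U1 RNA, had 52.9, 64.3 and 79.1 normalised CPM (lowest, median and highest) in footprints, against 12.03, 19.5 and 24.7 in input. Its log2 change was 1.67 (SE 0.114, adjusted p = 3.6e-09), beside 1.08 for Snrpc, another U1 snRNP protein, 0.83 for Snrpb2 and 0.39 for Snrpa1, both proteins of the U2 snRNP.

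The Lsm ring was less even, with 6 of 8 genes higher and 1 lower. Lsm2, a subunit of both the nuclear and the cytoplasmic ring, had 112, 125 and 139.5 normalised CPM in footprints, against 25.5, 29.8 and 34.9 in input, with no overlap. Its log2 change was 2.04 (SE 0.0696, adjusted p = 2.58e-12). Lsm1, which distinguishes the cytoplasmic decay ring, went the other way, with 20.01, 26.9 and 32.8 normalised CPM in footprints, against 30.0, 42.5 and 54.01 in input. Its log2 change was -0.62 (SE 0.118, adjusted p = 0.000194), it was lower in 8 of 9 lysates, and its 2 ranges overlapped. Lsm8, which distinguishes the nuclear ring of U6 RNA, was at 0.40 (SE 0.144, adjusted p = 0.0188), and at 0.33 (adjusted p = 0.0526) without the 30 min lysate. Of the other subunits shared by both rings, Lsm4 was at 0.82, Lsm7 at 0.72, Lsm3 at 0.66, Lsm6 at 0.56 and Lsm5 at -0.08, which was not called (adjusted p = 0.626).

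Lsm10 and Lsm11, which stand in for a pair of Sm proteins in the U7 snRNP of histone mRNA processing, differed in direction. Lsm10 had 7.05, 8.98 and 12.2 normalised CPM in footprints, against 6.35, 7.20 and 8.46 in input, a log2 change of 0.28 (SE 0.0948, adjusted p = 0.0147). Lsm11 had 7.08, 12.0 and 13.2 normalised CPM in footprints, against 9.58, 14.8 and 21.4 in input, a log2 change of -0.52 (SE 0.0966, adjusted p = 0.00016). Both pairs of ranges overlapped, although Lsm11 was lower in footprints in 9 of 9 lysates. In experiment 1 alone Lsm10 was not called (0.15, adjusted p = 0.241). Of the other Lsm-domain proteins, Lsm14a, a P-body protein that represses translation, was at 0.73 and Lsm12 at 0.38, while Lsm14b, the paralogue of Lsm14a, was at 0.02 and not called.

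**Figure D2:**
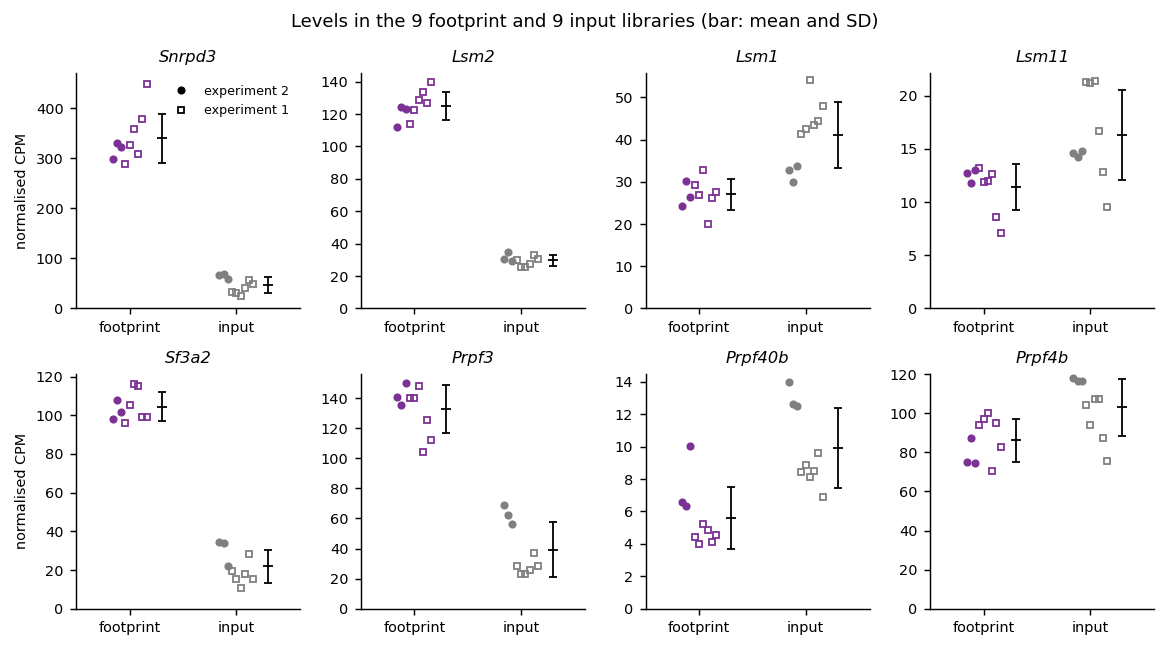
Normalised CPM (y axis, from 0) of 8 genes in the 9 footprint and the 9 input libraries, with filled circles for experiment 2, open squares for experiment 1 and a bar for the mean and SD. Footprints of Snrpd3, Lsm2, Sf3a2 and Prpf3 lie above every input value, and those of Lsm1, Lsm11, Prpf40b and Prpf4b overlap the input values from below.

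Among the Sf3 proteins, all 3 subunits of SF3A were higher in footprints. Sf3a2 had 96.2, 101.9 and 116 normalised CPM (lowest, median and highest) in footprints, against 10.5, 19.3 and 34.8 in input, a log2 change of 2.24 (SE 0.181, adjusted p = 2.33e-08) with no overlap. Sf3a1 was at 1.41 and Sf3a3 at 0.52. Of SF3B, 5 of 6 genes were higher. Sf3b4, a subunit with RNA recognition motifs, had 228, 263 and 316 normalised CPM in footprints, against 51.6, 72.5 and 107 in input, a log2 change of 1.78 (SE 0.125, adjusted p = 4.61e-09) with no overlap. Sf3b5 and Sf3b6, the short subunits, were at 0.82 and 0.53, Sf3b3 at 0.35 and Sf3b1, the subunit that clamps the branch point helix, at 0.12, not called (adjusted p = 0.124). Sf3b2 stood lowest among those called, at 0.22 (SE 0.0855, adjusted p = 0.0297), with 361, 439 and 593 normalised CPM in footprints, against 312, 384 and 467 in input, ranges that overlapped widely. Sf3b2 was not called in experiment 1 alone, nor without the 90 min lysate or the 20 or 40 min lysate of experiment 2.

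The Prpf proteins of the tri-snRNP were higher in 3 of 5 cases. Prpf3, a U4/U6 protein, had 104, 140.2 and 149.9 normalised CPM in footprints, against 22.8, 28.4 and 69.2 in input, a log2 change of 1.75 (SE 0.199, adjusted p = 1.05e-06) with no overlap. Prpf6, which bridges the parts of the tri-snRNP, was at 0.57 and Prpf4, the partner of Prpf3, at 0.52. Prpf31 (-0.04) and Prpf8, the scaffold of the catalytic centre (-0.24), were not called, at adjusted p = 0.629 and 0.123. The other 8 Prpf genes were 3 higher (Prpf38b at 0.57, Prpf38a at 0.32, Prpf18 at 0.29), 2 lower and 3 not called. Prpf40b, a U1-associated protein, had 4.01, 4.87 and 10.06 normalised CPM in footprints, against 6.86, 8.87 and 13.99 in input. Its log2 change was -0.88 (SE 0.164, adjusted p = 0.000161), lower in 9 of 9 lysates although the ranges overlapped. Prpf4b, a kinase of the spliceosome, had 70.2, 87.03 and 99.9 normalised CPM in footprints, against 75.5, 107 and 118 in input, a log2 change of -0.28 (SE 0.0952, adjusted p = 0.0135) that was negative in 6 of 9 lysates. In experiment 1 alone Prpf4b was at -0.14 and not called (adjusted p = 0.196).

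The Sm and Lsm median exceeded the Prpf and Sf3 median in every lysate, by 0.04 to 0.50 and by 0.26 ± 0.15 on average (SD, n = 9). The members were chosen and the classes drawn with earlier results known, and this difference carries no test. Its size went with the experiment. It was 0.35 to 0.50 in the 3 lysates of experiment 2 and 0.04 to 0.30 in the 6 of experiment 1, and the fit of experiment 1 alone gave 0.15, against 0.32 over all lysates. The log2 ratio was higher in experiment 2 for 32 genes and lower for 13, and 7 of the 10 genes whose mean ratio exceeded 1 were among the 13. These counts were not made over all genes. The median of all genes was 0.012 to 0.036 in experiment 2 and -0.058 to 0.011 in experiment 1. The mean that picked the 10 genes held 6 lysates of experiment 1 and 3 of experiment 2, which favours genes higher in experiment 1. Snrpd3 averaged 2.30 ± 0.16 in experiment 2 (SD, n = 3) and 3.19 ± 0.38 in experiment 1 (SD, n = 6), and Prpf3 averaged 1.18 ± 0.20 in experiment 2 and 2.21 ± 0.37 in experiment 1. Prpf3 footprints held 136 to 149.9 normalised CPM in experiment 2 and 104 to 148 in experiment 1, ranges that overlapped, and Prpf3 input held 56.3 to 69.2 in experiment 2 and 22.8 to 37.2 in experiment 1, ranges that did not. Experiment 2 was also sequenced more deeply, and what sets the 2 experiments apart was not tested.

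Per gene the median footprint level was 138 normalised CPM in the Sm and Lsm class and 166 in the Prpf and Sf3 class, an order that turned round per coding length. The median coding length was 381 bases in the Sm and Lsm class and 1813.5 bases in the Prpf and Sf3 class, and the median footprint level was 414 CPM per coding kilobase in the Sm and Lsm class and 91.99 in the other. Snrpd1 stood highest, at 1911 CPM per coding kilobase, followed by Snrpe at 1235, Snrpd2 at 1135 and Snrpf at 1007, all of the Sm ring. In these genes, in the same order, 60.4%, 80.6%, 75.8% and 83.3% of 28-base coding windows also occur in other genes' transcripts. Their reads may thus not all be their own. Snrpd3, whose input level was the lowest of the ring, was at 892 and shared 0%. Prpf40b stood lowest, at 2.13, and Lsm11 was at 10.5, each the lowest of its class. Over the 45 genes, the log2 change in footprints correlated with the logarithm of coding length at r = -0.27 and rho = -0.36, and over 9640 tested genes with a coding length at r = -0.33 and rho = -0.36. These are descriptions across genes that share the same libraries.

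Reads of several short members cannot be assigned with certainty. Of all 28-base windows in the coding sequence, 100% in Lsm7 also occur in the annotated transcript of another gene. So do 87.6% in Lsm5, 84.9% in Sf3b4, 83.3% in Snrpf and 80.6% in Lsm6 and Snrpe. Snrpd2 followed at 75.8%, Snrpc at 69.3%, Lsm12 at 65.6%, Snrpa at 64.0% and Snrpd1 at 60.4%. In each of these the transcript sharing the most windows was a processed pseudogene. The sources used here do not say how such reads were counted. The median log2 change was 0.72 in the 11 genes with over 50% of windows shared and 0.38 in the 26 with under 10%. Within the Sm and Lsm class these were 0.70 and 0.66. Within the Prpf and Sf3 class the 1 gene over 50%, Sf3b4, was at 1.78, and the 17 under 10% had a median of 0.29. In that class the log2 change correlated with the share of windows at r = 0.45 and rho = 0.42. Snrpd3 and Lsm2, the highest of the class, shared 0%. On the same strand Snrpa1 overlaps Gm45213, Sf3b3 overlaps Snord111 and Gm22193, and Lsm3 overlaps AC161456.1. On the opposite strand Snrpd3 overlaps Gucd1, Sf3a2 overlaps Plekhj1, Snrpa overlaps BC024978, Snrpf overlaps Ccdc38, Prpf39 overlaps Fkbp3 and Sf3b3 overlaps Cog4. Whether counting used strand is not stated either.

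The converted share of each gene's input reads, those with at least 1 T-to-C conversion, was compared next with the median gene of the same library, as a measure of how much of the mRNA was new. Spliceosome mRNAs were more often called below than above in the main fit. By limma with Benjamini-Hochberg adjustment over the 8 labelled inputs, 8 of 43 tested members were above the library median and 18 below, where 35.2% of all 7045 genes were above and 35.2% below. The median was -0.31 on the log2 odds scale over the members and -0.03 over all genes. With background subtracted a smaller share of the members than of all genes was called below, as given under the processing. Of the Sm and Lsm proteins 3 of 22 were above and 9 below (median -0.36), and of the Prpf and Sf3 proteins 5 of 21 were above and 9 below (median -0.18). The difference between the class medians was positive in only 3 of 8 lysates and ranged from -0.40 to 0.33. Lsm4 and Prpf40b had too few converted or input reads to be tested.

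The U7 pair was the most labelled of the Sm and Lsm class. Lsm10 had 1.59% to 16.98% converted reads in the labelled inputs, with 9 of 53 reads at 120 min (95% Wilson interval 9.20% to 29.2%). Its relative labelling was 1.46 (SE 0.263, adjusted p = 0.000346), above the median in 7 of 8 lysates. Lsm11 ran from 0.48 to 1.70 over the lysates with a median of 0.92, and its fitted value was 0.96 (SE 0.168, adjusted p = 0.000288). Lsm2 ran from 0.14 to 1.14 with a median of 0.51, and its fitted value was 0.57 (SE 0.161, adjusted p = 0.00714). Both were above the library median in 8 of 8 lysates, and in experiment 1 alone Lsm2 was not called. Lsm11 had 1.30% converted reads in the unlabelled input (2 of 154 reads), and with that background subtracted it was at 0.09 and not called (adjusted p = 0.853). Unlabelled Lsm10 had 0 of 46 converted reads, which allows a share of up to 6.52%.

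At the low end of the class stood ring subunits. Of these 3 of 6 Sm ring genes and 3 of 7 tested Lsm ring genes were called below the median, beside 35.2% of all genes. Low labelling was not limited to the rings, as Snrpa1 (-0.75) and Snrpc (-0.72) were also below in 8 of 8 lysates. It also went with windows shared with other transcripts, 100% in Lsm7, 87.6% in Lsm5, 83.3% in Snrpf, 80.6% in Lsm6 and 75.8% in Snrpd2. The other ring gene called below, Snrpb, shared 13.6%. In this class median labelling was -0.78 in the 10 genes with over 50% shared. It was 0.04 in the 9 with under 10%, of which Lsm4 was not tested. The part of sharing in labelling was not tested. Lsm6 ran from -1.90 to -0.62 over the lysates with a median of -1.07, and its fitted value was -1.11 (SE 0.171, adjusted p = 0.000106). Snrpd2 ran from -1.72 to -0.47 with a median of -1.08, and its fitted value was -1.09 (SE 0.184, adjusted p = 0.000217). Lsm6 and Snrpd2 were thus below in 8 of 8 lysates. Lsm7 ran from -1.91 to 0.22 with a median of -1.39, below in 7 of 8, and its fitted value was -1.06 (SE 0.247, adjusted p = 0.00221). Snrpd2 reads held 4.68 T positions and Lsm7 reads 4.73, against a class median of 6.15. The number of T positions per input read correlated with relative labelling at r = 0.41 and rho = 0.52 over the 22 genes. Over the 21 Prpf and Sf3 genes it was r = 0.11 and rho = 0.23. There Prpf38b had the fewest T positions of all members, 4.07, and yet stood at 1.11. With conversion counted per T position, 8 members were above and 16 below, beside 2447 and 2509 of 7045 genes, and Lsm7 was no longer called. With background subtracted Lsm5, Lsm7 and Snrpf were not called.

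The Prpf and Sf3 proteins held both extremes. Prpf3 had 32.4% converted input reads at 120 min (57 of 176 reads, 25.9% to 39.6%), and Prpf38b 24.8% (106 of 427 reads, 20.96% to 29.1%). Their relative labelling was 1.29 (SE 0.254, adjusted p = 0.00068) and 1.11 (SE 0.15, adjusted p = 3.96e-05), with single lysates from 0.29 to 2.28 in Prpf3 and from 0.70 to 1.54 in Prpf38b. Sf3b4 followed at 0.86 (SE 0.172, adjusted p = 0.000798), with lysates from 0.23 to 1.44. All 3 were thus above the median in 8 of 8 lysates. Sf3b2 reached only 3.07% at 120 min (90 of 2928 reads, 2.51% to 3.76%) and Prpf31 3.91% (63 of 1613 reads, 3.06% to 4.97%). They stood at -1.43 (SE 0.162, adjusted p = 9.44e-06) and -1.27 (SE 0.147, adjusted p = 1.07e-05), with single lysates from -1.84 to -0.71 in Sf3b2 and from -1.66 to -0.90 in Prpf31. Prpf19, a ubiquitin ligase of the active spliceosome, was at -1.07 (SE 0.177, adjusted p = 0.000198), with lysates from -1.68 to -0.15, so that these 3 were below in 8 of 8 lysates. Subunits of 1 complex thus differed: within SF3B, Sf3b4 was above the median and Sf3b2, Sf3b5 and Sf3b6 were below, and within the tri-snRNP Prpf3 and Prpf4 were above and Prpf6 and Prpf31 below. With background subtracted Sf3b5 and Sf3b6 were no longer called, nor was Sf3b5 per T position. The call for Prpf4 (0.70, SE 0.214, adjusted p = 0.0108) did not hold with background subtracted, at -0.00197, nor in experiment 1 alone.

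**Figure D3:**
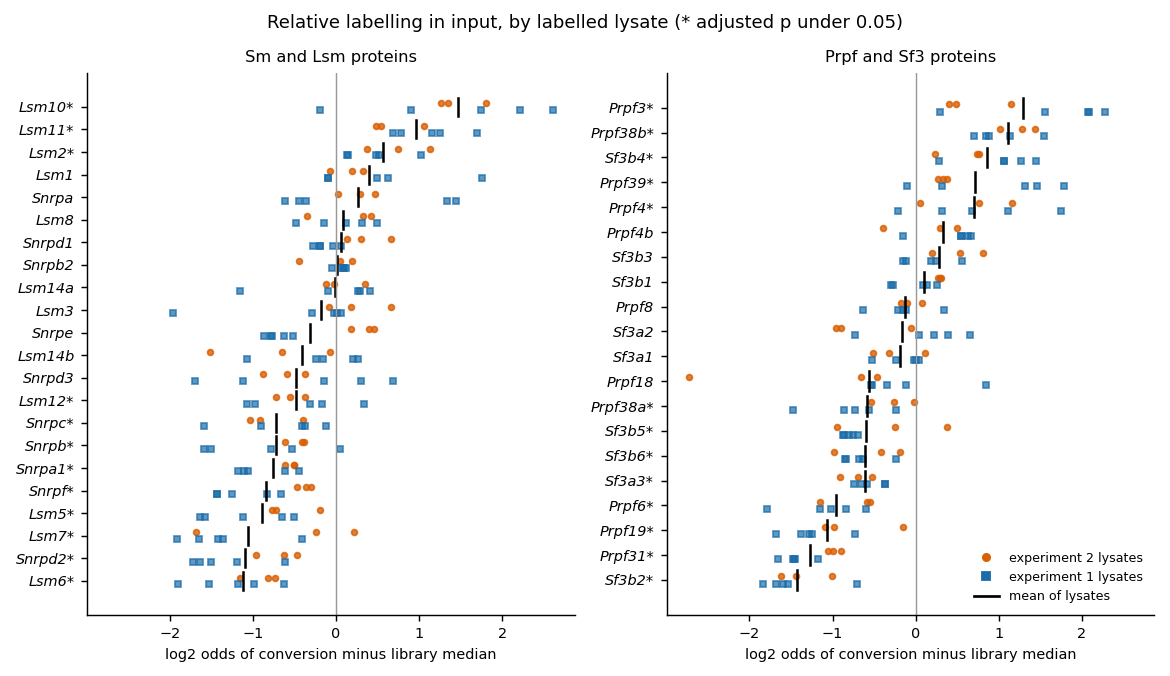
Relative labelling in input (x axis, log2 odds of a converted read, less the median of that library) of 22 Sm and Lsm genes (left) and 20 Prpf and Sf3 genes (right), with 1 point per labelled lysate and the mean of 8 as a bar. Lsm10, Prpf3 and Prpf38b stand highest, and Sf3b2, Prpf31, Lsm6 and Snrpd2 lie below 0 in every lysate.

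Whether newly made spliceosome mRNA is found on ribosomes to the same share as in the cytoplasm was tested from converted and unconverted reads of both materials. The converted share was lower in footprints for 35 of the 44 tested members and higher for 0, where 59.4% of all 8276 genes were lower and 0.145% higher (edgeR on converted and unconverted counts, with 0 members higher also at an unadjusted p under 0.05 and by limma). The median log2 odds ratio was -0.79 over the members and also -0.79 over all genes. Of the Prpf and Sf3 proteins all 21 tested were lower, with a median of -1.13, and of the Sm and Lsm proteins 14 of 23, with a median of -0.76. These counts move with the processing. The calls of Sf3a2, Sf3b5, Prpf18 and Sf3b6 were lost under 9, 7, 6 and 6 alternatives. Per T position Lsm1, Lsm4, Lsm6, Lsm14a and Lsm14b were also called lower, and Lsm3 and Sf3b5 were not. The ratio was below 0 in 8 of 8 lysates for 24 members and in 7 of 8 for 12, counts not made over all genes.

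Prpf3 had the lowest ratio. Its converted share in footprints was 0.263%, 1.21%, 4.17%, 7.02% and 11.8% at 20, 40, 60, 90 and 120 min of experiment 1, against 0.581%, 9.20%, 15.3%, 14.9% and 32.4% in input. The log2 odds ratio was -2.22 (SE 0.263, adjusted p = 3.11e-14) and lay between -3.14 and -1.22 in single lysates. Prpf4b had 1.01%, 3.74% and 8.41% in footprints at 60, 90 and 120 min, against 6.16%, 8.68% and 14.2% in input, a ratio of -1.81 (SE 0.266, adjusted p = 8.69e-10) with lysates from -2.61 to -0.85. Prpf38b was at -1.54 (SE 0.244, adjusted p = 1.39e-08) with lysates from -3.08 to -0.25, Sf3b3 at -1.46, Prpf8 at -1.45 and Sf3b1 at -1.36, all called. In each of these the footprints held the smaller share in 8 of 8 lysates. Nearest to 0 among the called members of this class were Sf3a3 at -0.67 (SE 0.214, adjusted p = 0.00524), Prpf19 at -0.59 (SE 0.213, adjusted p = 0.0127) and Sf3b6 at -0.59 (SE 0.25, adjusted p = 0.0337). Over the lysates Sf3a3 ran from -1.33 to -0.12, Prpf19 from -1.29 to 0.0014 and Sf3b6 from -1.18 to 0.09.

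**Figure D4:**
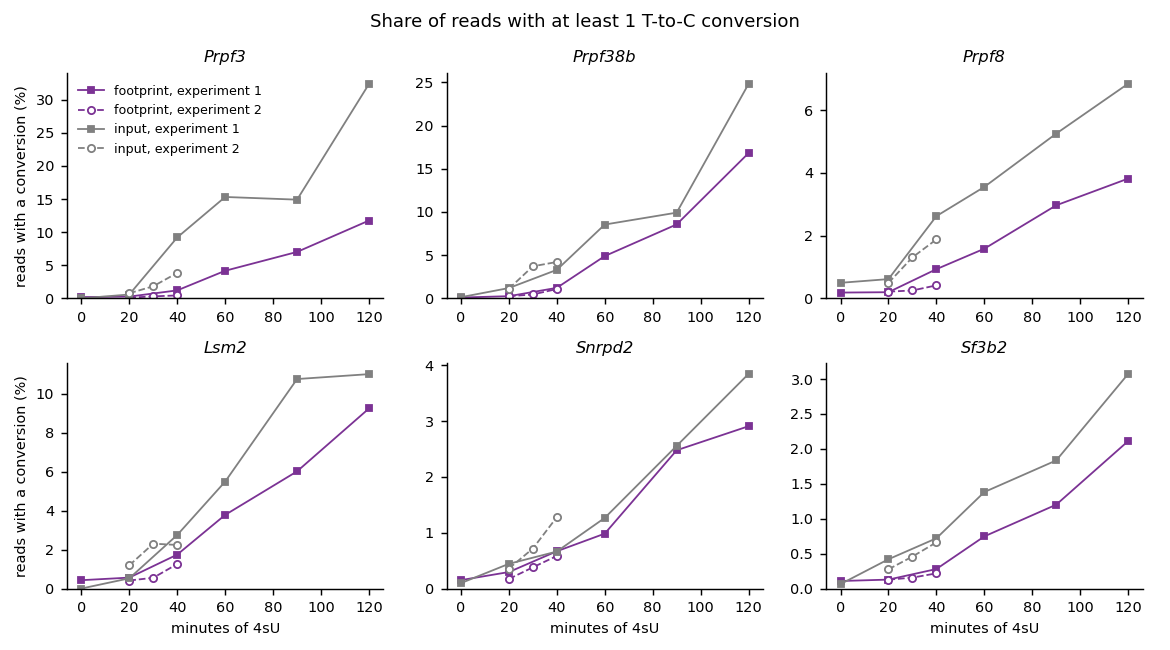
Share of reads with at least 1 conversion (y axis, percent) by minutes of 4sU (x axis) for 6 genes, with footprints and input in different colours, experiment 1 as squares and experiment 2 as open circles. Prpf3 reaches 11.8% in footprints and 32.4% in input at 120 min, and Snrpd2 reaches 2.91% in footprints and 3.85% in input.

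In the Sm and Lsm class the lowest ratios belonged to Lsm5 at -1.15 (SE 0.273, adjusted p = 0.000184), Lsm7 at -1.06 (SE 0.286, adjusted p = 0.000937) and Lsm2 at -0.96 (SE 0.276, adjusted p = 0.00204). Single lysates ran from -2.39 to -0.28 in Lsm5, from -2.63 to -0.06 in Lsm7 and from -2.09 to -0.31 in Lsm2, all below 0. Called nearest to 0 were Snrpc at -0.75 (SE 0.283, adjusted p = 0.0178), Snrpd1 at -0.71 (SE 0.195, adjusted p = 0.00122) and Snrpd2 at -0.57 (SE 0.218, adjusted p = 0.0188). Single lysates ran from -1.63 to 0.0091 in Snrpc, from -1.38 to -0.06 in Snrpd1 and from -1.14 to -0.03 in Snrpd2. The U7 pair and the 3 other Lsm-domain proteins were not called, with Lsm10 at -0.42 and Lsm12 at -0.15, the value nearest to 0 of all members. Without the 90 min lysate Lsm11, Lsm14a and Lsm14b were called lower. Lsm10 had few reads, with 33 of 134 converted in footprints at 120 min (18.1% to 32.6%), against 9 of 53 in input (9.20% to 29.2%), so a difference was not detectable at this depth.

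The Sm and Lsm median exceeded the Prpf and Sf3 median in 7 of 8 lysates, and the difference ran from -0.06 to 1.15 and averaged 0.46 ± 0.36 (SD, n = 8). The classes differ in coding length, and the ratio went with it. The 9 members of 2000 or more coding bases had a median of -1.45 and ranged from -2.22 to -1.13. The 12 of 1000 to under 2000 bases had a median of -0.73, and the 23 of under 1000 bases -0.75. The short SF3B subunits Sf3b5 (-0.70) and Sf3b6 (-0.59) thus lay with the ring proteins and not with Sf3b1 and Sf3b3. The correlation of the ratio with the logarithm of coding length was r = -0.59 and rho = -0.50 over the 44 members, r = -0.63 and rho = -0.75 over the 21 Prpf and Sf3 genes and r = 0.16 and rho = 0.16 over the 23 Sm and Lsm genes. Over 7956 genes it was r = -0.23 and rho = -0.26. Among the Prpf and Sf3 genes the ratio also went with relative labelling in input (r = -0.51, rho = -0.58, n = 21). These correlations are descriptions, the length groups were drawn after the values were seen, and the part of length or labelling in the ratio was not tested.

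The ratio lay nearer to 0 in the late lysates, in members as in all genes. The Sm and Lsm median ran from -1.24 to -0.66 in the lysates of 20 to 40 min and from -0.51 to -0.08 in those of 60 to 120 min. The Prpf and Sf3 median ran from -2.38 to -1.13 and from -0.83 to -0.32, and the median of all genes from -1.65 to -0.75 and from -0.62 to -0.23. All lysates of 60 min and more were of experiment 1, so time and experiment cannot be told apart in full here. In the unlabelled lysate the summed Prpf and Sf3 reads had 0.236% conversion in footprints and 0.244% in input. At 20 min the share was still 0.195% and 0.259% in footprints of experiments 2 and 1, and 0.498% and 0.569% in their inputs. The summed Sm and Lsm reads had 0.228% and 0.302% in the 20 min footprints of experiments 2 and 1, against 0.246% in unlabelled footprints. Over the whole library these shares were 0.313% and 0.458%, against 0.298%, and experiment 2 had no unlabelled lysate of its own. Set against the median gene of each lysate, 2 members were lower by limma, Prpf3 (-1.47, adjusted p = 0.0208) and Prpf4b (-1.02, adjusted p = 0.0451), with class medians of -0.038 for Sm and Lsm and -0.34 for Prpf and Sf3, beside 46 of 8276 genes lower. With experiment 1 alone 17 members were lower by edgeR, beside 1961 of 8276 genes. In the 3 lysates of 60 to 120 min alone, fitted by limma, 0 members were lower, as were 0 of all genes. Of all genes 1980 were lower in that limma fit at an unadjusted p under 0.05.

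**Figure D5:**
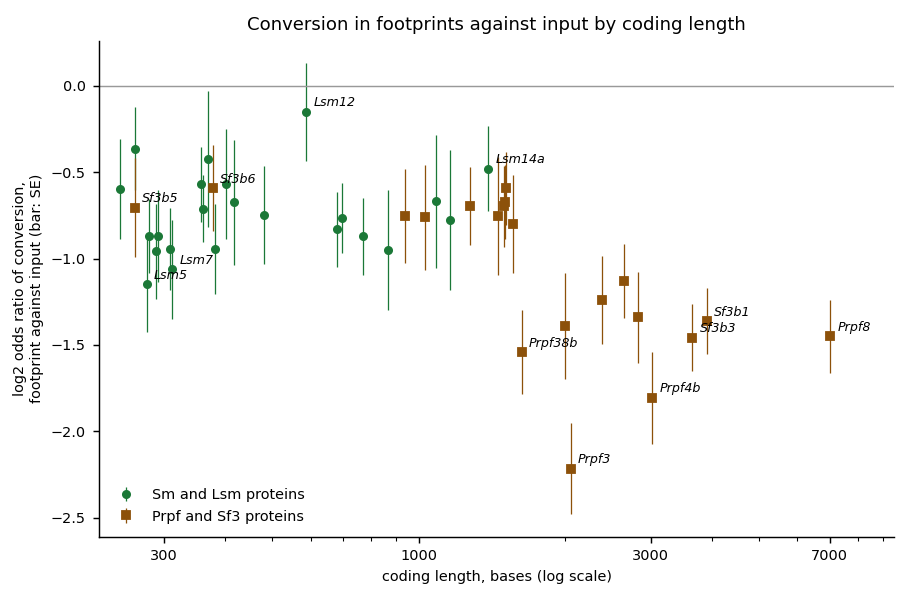
Log2 odds ratio of converted reads in footprints relative to input (y axis, fitted value and SE), against coding length in bases (x axis, log scale) for 23 Sm and Lsm and 20 Prpf and Sf3 genes. The genes of 2000 or more bases lie between -2.22 and -1.13, and shorter genes lie between -1.54 and -0.15.

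In input 1 of 45 members was called lower with hours of 4sU by edgeR and 0 higher, where 0.475% of 9269 genes were higher and 6.51% lower. At an unadjusted p under 0.05, 4 members were higher and 4 lower, beside 885 and 1618 of all genes. DESeq2's Wald test called 1 higher and 2 lower, beside 338 and 971 of all genes. The member called was Prpf4, with 48.2 normalised CPM in unlabelled input and 53.1, 41.8, 40.6, 32.1 and 27.1 at 20, 40, 60, 90 and 120 min of experiment 1. Its slope was -0.46 per hour on the log2 scale (SE 0.072, adjusted p = 0.0104), and it was no longer called without the 90 or the 120 min lysate. With experiment as a replicate block 3 members were higher and 2 lower, and over all genes 384 were higher and 1156 lower, against 44 and 603 without the block. Most slopes of the Sm and Lsm class were positive in both materials, although 8 were called higher in footprints and 0 in input. In footprints 19 of 23 were positive with a median slope of 0.21 per hour, and in input 20 of 23 with a median of 0.21. The median slope of all genes was 0.007 in footprints and -0.020 in input, and positive slopes were not counted over all genes. All lysates of 60 min and more were of experiment 1, so hours of 4sU and experiment cannot be told apart in full. The Sm ring had 6 of 6 positive in each material, with medians of 0.28 in footprints and 0.24 in input, and the Lsm ring 7 of 8 in footprints (median 0.23) and 8 of 8 in input (0.22).

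In footprints 10 of 45 members were called higher and 2 lower, where 7.13% of 9664 genes were higher and 14.2% lower. The 10 were 8 Sm and Lsm genes and 2 of SF3B, with slopes of 0.19 to 0.32 per hour. Snrpc had 119 normalised CPM in unlabelled footprints and 133, 138, 122, 164 and 189 at 20, 40, 60, 90 and 120 min of experiment 1, a slope of 0.31 (SE 0.0641, adjusted p = 0.008). Snrpf had 229.8, 264, 268, 244, 304 and 364 normalised CPM in footprints at the same 6 points, a slope of 0.30 (SE 0.0695, adjusted p = 0.0118). Snrpd2 had 352, 375, 397, 414, 475 and 521, a slope of 0.29 (SE 0.0521, adjusted p = 0.00355), with its highest values in the latest lysates as in Snrpc and Snrpf. Sf3b5 had 92.9, 102, 104, 128, 133 and 140.2, a slope of 0.32 (SE 0.0778, adjusted p = 0.0147). Snrpa, Snrpa1, Snrpd3, Lsm4, Lsm7 and Sf3b1 completed the group. The calls of Lsm4, Sf3b1, Snrpa1 and Lsm7 were lost under 11, 10, 9 and 9 alternatives, experiment 1 alone and no low-count filter among them for each. Lower were Prpf4, at -0.46 per hour (SE 0.103, adjusted p = 0.0104), and Lsm11, at -0.44 (SE 0.108, adjusted p = 0.0157), with 13.2 normalised CPM in the unlabelled footprints and 11.9, 12.0, 12.7, 8.62 and 7.08 at 20, 40, 60, 90 and 120 min of experiment 1. The counts depend on single lysates, in members as in all genes. Without the 120 min lysate 0 members were higher and 0 lower, beside 3 and 64 of 9719 genes. Without the 90 min lysate 4 members were higher and 1 lower, beside 204 and 829 genes, and without the 60 min lysate 16 and 2, beside 1078 and 1524 genes, where all lysates gave 689 and 1373 genes. Without either 20 min lysate 6 members were higher, beside 428 genes without that of experiment 1 and 394 without that of experiment 2.

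The footprint-to-input ratio did not change detectably with hours of 4sU in any member. Of the 45 members 0 were called higher and 0 lower, as were 0.0% of all 10110 genes in each direction. At an unadjusted p under 0.05 the count was 1 higher (Sf3a1, 0.32 per hour, adjusted p = 1) and 0 lower, and DESeq2 also called 0 members. Slopes of the members lay between -0.23 and 0.32 per hour, with a median of 0.05.

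Spliceosome genes outside the symbol rule, in 4 lists written from general knowledge, were also more often higher than lower in footprints, at 49 of 87 against 19, and their median was 0.26. Among other snRNP and tri-snRNP proteins 14 of 26 were higher and 9 lower (median 0.20), from Smndc1 at 2.49 and Zmat2 at 1.21 to the minor-spliceosome proteins Snrnp25 at -0.73 and Pdcd7 at -0.91. Of factors that recognise the branch point and 3′ splice site 10 of 14 were higher and 3 lower (median 0.59), with Cherp at 2.68 and the branch point binding protein Sf1 at 1.63 above, and Rbm10 at -0.49 and the kinase Uhmk1 at -1.65 below. Of Prp19 complex and catalytic step factors 16 of 31 were higher and 4 lower (median 0.24), with Cdc40 at 1.33 and Rbm22 at 1.06 above, and the helicases Ddx41 at -0.49 and Dhx16 at -0.99 below. Of the genes of snRNP assembly 9 of 16 were higher and 3 lower (median 0.27), with Smn1, the gene of the survival motor neuron protein that loads the Sm ring, at 2.62 and the cap-binding Ncbp2 at 1.36, against Coprs at -0.66 and Gemin7 at -1.08. Copies and overlaps of the genes in these lists were not checked.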

How the data were processed

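The deposited values are raw read counts per gene, in columns headed by T positions (0 to 20) and T-to-C conversions (0 to 3) of the reads, a meaning read from headings and values. Bowtie 0.12.8 and mm10 are named in the submitters' processing notes. The counting program, annotation, region counted and mismatch limit are absent from the sources used here. Per the labels, fragments were 25 to 35 nt.

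Footprints were compared with input by edgeR 4.0.16 quasi-likelihood fits, with TMM scaling, a low-count filter by material and a term for labelling time. Slopes used hours of 4sU, and the ratio trend the product of material and hours. Relative labelling was tested with limma 3.58.1 and conversion in footprints with edgeR's methylation design, over genes averaging 50 reads a library and reaching 50 converted reads in all, with a pseudocount of 0.5. Fits ran over all genes. Two-sided p-values were adjusted by Benjamini-Hochberg and called under 0.05. DESeq2 1.42.0 was an alternative. The fits were tested on simulated data. Normalised CPM uses TMM library sizes, and lysate ratios add 0.5 to it. Wilson intervals and limits for 0 (3 counts) cover counting error only.

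Input and footprints of 1 lysate are paired by the protocol in the labels. Their deviations correlated at 0.111 to 0.741, and 3 of 9 footprint libraries correlated best with their own input. With this pairing as a replicate block, 33 members were higher and 4 lower in footprints, as without it.

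The members, gene lists and tests were chosen with earlier results of these data known. Any member may be named, but some genes that this rule names, and 1 sequence, are not reported here. Per-library values are given for the highest and lowest called members of each class with a mean of 100 reads, and up to 2 highest and 2 lowest called genes of each other list are named.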

Additional observations from a re-analysis of the deposited data

How the results depend on the processing

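Between the materials, 32 to 36 members were higher and 4 or 5 lower under DESeq2, other scaling, no low-count filter, replicate blocks, experiment 1 alone and with each lysate left out. Over all genes tested 3483 to 3959 were higher and 3818 to 4586 lower under the same settings. The class difference there was 0.15 in experiment 1 alone, against 0.32. With lysate as a replicate block it was 0.33. Experiment as a replicate block was run on the material, footprint-trend, ratio-trend and labelling comparisons and the input trend. It changed a member count by over 1.5 times only in the input trend. Conversion was run with lysate as a replicate block (36 members lower, beside 4995 of 8276 genes).

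In the input trend, DESeq2's Wald test called 1 member higher and 2 lower, experiment as a replicate block 3 and 2, experiment 1 alone 2 lower, and leaving out lysates 0 to 3 higher and 0 to 2 lower. Over all genes these were, in the same order, 338 and 971, 384 and 1156, 508 lower, and 0 to 110 higher and 0 to 728 lower. In the footprint trend, no low-count filter gave 6 higher, and leaving out lysates 0 to 16 higher and 0 to 2 lower. Over all genes no low-count filter gave 271 higher, and leaving out lysates 3 to 1078 higher and 64 to 1524 lower.

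In relative labelling, a pseudocount of 2 put the Prpf and Sf3 median at -0.28 and turned the class difference of -0.18 to 0.031. Leaving out lysates put that median between -0.28 and -0.14. Subtracting the background gave 11 members lower, beside 2313 of 7045 genes, and put Prpf4 at -0.00197.

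In conversion, values relative to the lysate median gave 2 members lower, with medians of -0.038 (Sm and Lsm) and -0.34 (Prpf and Sf3). Called members above 0 on that scale, by its construction, were Prpf19 (0.23), Prpf31 (0.10), Prpf38a (0.030), Prpf4 (0.016), Sf3a3 (0.13), Sf3b4 (0.044), Sf3b6 (0.21), Snrpb (0.052), Snrpd1 (0.13) and Snrpd2 (0.26). Experiment 1 alone gave 17 lower. Times of 60 to 120 min alone, with fewer lysates and by limma, gave 0 lower, a Sm and Lsm median of -0.28 and Prpf38a at 0.00744. Leaving out lysates gave 27 to 40 members lower, beside 3462 to 5347 of 8276 genes. For the other changes the cause was not tested.

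Depth limited Lsm10, Lsm11 and Prpf40b most, with means of 208, 323 and 206 reads per library.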

Other observations

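Of the 4 other spliceosome lists, 24 of 80 genes were labelled above the library median in input and 33 below, with a median of -0.32 by limma, where 35.2% of all genes were above and 35.2% below. Among the most labelled were Zfp830 at 2.40 of the Prp19 and catalytic list, Smndc1 at 1.75, Phax, the export adaptor of small nuclear RNA, at 1.73 and Pdcd7 at 1.61. The least labelled were Ctnnbl1 at -1.94, Ppil2 at -1.72, Eftud2, the U5 GTPase, at -1.51 and Sart1 at -1.38.

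In conversion, footprints against input, 69 of 84 genes of these lists were lower and 0 higher (edgeR, with 0 higher also at an unadjusted p under 0.05), with a median of -0.99, where 59.4% of all genes were lower. Smn1 at -1.82, Rbm25 at -1.81 and Tgs1 at -1.70 were among the lowest, and Strap at -0.60 and Snw1 at -0.59 nearest to 0 among those called. In the input trend 2 of 85 were higher (Rnpc3 at 0.41 and Htatsf1 at 0.26 per hour) and 3 lower (Bud13 at -0.62, Cwc22 at -0.59 and Ppwd1 at -0.46), where 0.475% of all genes were higher and 6.51% lower. In the footprint trend 8 of 87 were higher and 6 lower, beside 7.13% and 14.2% of all genes, with Cwc22 at -0.81 and Ppwd1 at -0.54 lowest and Isy1 at 0.38 and Ncbp2 at 0.36 highest among those called. In the ratio trend 0 of 87 were called by edgeR, as were 0.0% of all genes, with 2 higher and 0 lower at an unadjusted p under 0.05.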
